A study of Rattus norvegicus with 48 samples.

Results

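Asns, Nupr1 and Atf5 are 3 stress genes linked to the transcription factor Atf4, and their RNA was followed here in rat kidney over 4 strains and 3 days of treatment. They were taken as the probe sets whose only gene symbol in the platform annotation is one of those names. Each had 1 probe set, so the members are 3 genes of 7589 genes named from 7603 single-symbol probe sets, out of 8797 probe sets in all. The genes were chosen with their values on these same arrays known. Their levels and differences are therefore given as a description, with standard errors (SE) and 95% intervals but no p-value.

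Male rats of strains labelled F, L, FL and LF received a daily dose of indole-3-carbinol by stomach tube, 100 mg for each kg of body weight, for 7 or 10 days. Day 0 rats of the same strains received the vegetable oil carrier, so the 12 groups differ in strain and in days of the compound, and no group went without gavage. The sample labels give an age of 12 weeks and the protocol 12 to 14 weeks, with 8 rats and 4 arrays per group (48 arrays). Indole-3-carbinol comes from cabbage-family plants, its products formed in the stomach activate the aryl hydrocarbon receptor, and the Cyp1a1 promoter that this receptor drives is used in rats to switch on transgenes. The labels call the treated days an induction, but they name no transgene, do not say what the strain letters stand for, and leave unsaid if each array carries RNA from 1 rat or a pool. The p-values below thus measure only the spread between these arrays.

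When a cell lacks amino acids or accumulates unfolded protein, kinases phosphorylate the initiation factor eIF2, general protein synthesis slows and Atf4 is translated more. Atf4 then raises the transcription of genes for amino acid synthesis, amino acid uptake and tRNA charging, a programme known as the integrated stress response. Because Atf4 is controlled largely at translation, its RNA need not follow its protein, and protein was not measured here. Asns encodes asparagine synthetase, which makes asparagine from aspartate and glutamine. Nupr1 encodes a small chromatin-associated nuclear protein that many stresses induce. Atf5 encodes a leucine zipper transcription factor related to Atf4.

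Atf4 with a C/EBP partner binds a composite element whose core was searched here as TGATGNAA, on both strands (the reverse is TTNCATCA), in RefSeq promoter windows of 300 bases on GRCr8 (250 before and 50 after the annotated start). All 3 genes had a window. Nupr1 held 1 match and Asns and Atf5 held none. The 250 bases upstream of Nupr1, at chr1:190645902-190646151 on the minus strand, are shown because this was the one match among the 3 genes. Capitals mark it, on the strand opposite to transcription.
Nupr1: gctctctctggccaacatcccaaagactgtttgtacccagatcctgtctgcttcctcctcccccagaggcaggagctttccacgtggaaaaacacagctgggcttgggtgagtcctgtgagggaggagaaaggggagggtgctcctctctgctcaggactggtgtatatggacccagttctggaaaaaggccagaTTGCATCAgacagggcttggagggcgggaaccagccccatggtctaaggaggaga
Of all 33469 promoter windows, 1332 held the motif (3.98%), and of 47 measured genes of an Atf4 pathway list 7 held it (Fgf21, Got1, Jdp2, Slc1a4, Slc7a1, Tars1 and Trib3; 14.9%). A match is a stretch of letters and not a shown binding site, and the lack of one says only that these letters are not in the window.

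All 3 genes had their highest group mean in FL rats at day 0, the carrier-fed FL group. Against the mean of F, L and LF at day 0, Asns was 2.07-fold higher there, Atf5 1.60-fold and Nupr1 1.49-fold. In FL rats given the compound for 7 days, Nupr1 was 3.54-fold, Asns 2.28-fold and Atf5 1.37-fold below the FL carrier level. Values are log2 signals as deposited. Levels of different genes come from different probe sets and are not compared with each other.

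Asns in the 4 FL day 0 arrays measured 6.71, 6.64, 6.27 and 5.48 for replicates 1 to 4. It measured 5.04, 5.20, 5.31 and 5.22 in F, 5.20, 5.01, 5.55 and 5.15 in L, and 5.29, 5.32, 5.23 and 5.16 in LF. Replicates 1, 2 and 3 of FL lay above all 12 arrays of the other strains (5.01 to 5.55, median 5.21), and replicate 4 lay inside that range. The group means were 6.28 ± 0.56 (SD, n = 4) in FL, 5.19 ± 0.11 in F, 5.23 ± 0.23 in L and 5.25 ± 0.07 in LF. The FL minus others difference was 1.05 (SE 0.15, 95% interval 0.76 to 1.34), while F, L and LF lay within 0.06 of each other in every pair.

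Nupr1 at day 0 measured 9.12, 9.03, 8.95 and 8.34 in FL. It measured 8.84, 8.62, 8.85 and 8.16 in L, 8.66, 8.53, 8.23 and 8.23 in LF, and 7.75, 7.59, 7.78 and 8.19 in F. All FL arrays lay above all F arrays, but they overlapped those of L and LF. The means were 8.86 ± 0.35 (SD, n = 4) in FL, 8.62 ± 0.32 in L, 8.41 ± 0.22 in LF and 7.83 ± 0.26 in F. For Nupr1 the strain that stood furthest from the rest at day 0 was thus F, at the low end. FL exceeded F by 1.03 (SE 0.21, 0.61 to 1.46), LF by 0.45 (0.02 to 0.87) and L by 0.24, with an interval from -0.18 to 0.67 that includes 0. F was also below L, by -0.79 (-1.22 to -0.36), and LF was above F by 0.58 (0.16 to 1.01).

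Atf5 at day 0 measured 6.92, 7.09, 6.82 and 6.26 in FL. In F it measured 6.22, 6.22, 5.95 and 6.01, in L 6.11, 6.18, 6.08 and 5.84, and in LF 6.19, 6.17, 6.09 and 6.05. All 4 FL arrays lay above all 12 arrays of the other strains, the lowest FL array by a narrow margin (6.26 against 6.22). The FL mean was 6.77 ± 0.36 (SD, n = 4), against 6.10 ± 0.14 in F, 6.05 ± 0.15 in L and 6.12 ± 0.07 in LF. The difference of FL from the other strains was 0.68 (SE 0.10, 0.48 to 0.88).

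Of the 3 genes, only Atf5 had every FL day 0 array above every other day 0 array, which 0.0796% of all probe sets did. Against F alone this separation held for 3 of 3 genes (0.875% of probe sets), against L for Atf5 (1.61%), and against LF for Asns and Atf5 (2.31%). Since measured values chose the genes, nothing is read from these shares.

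**Figure D1:**
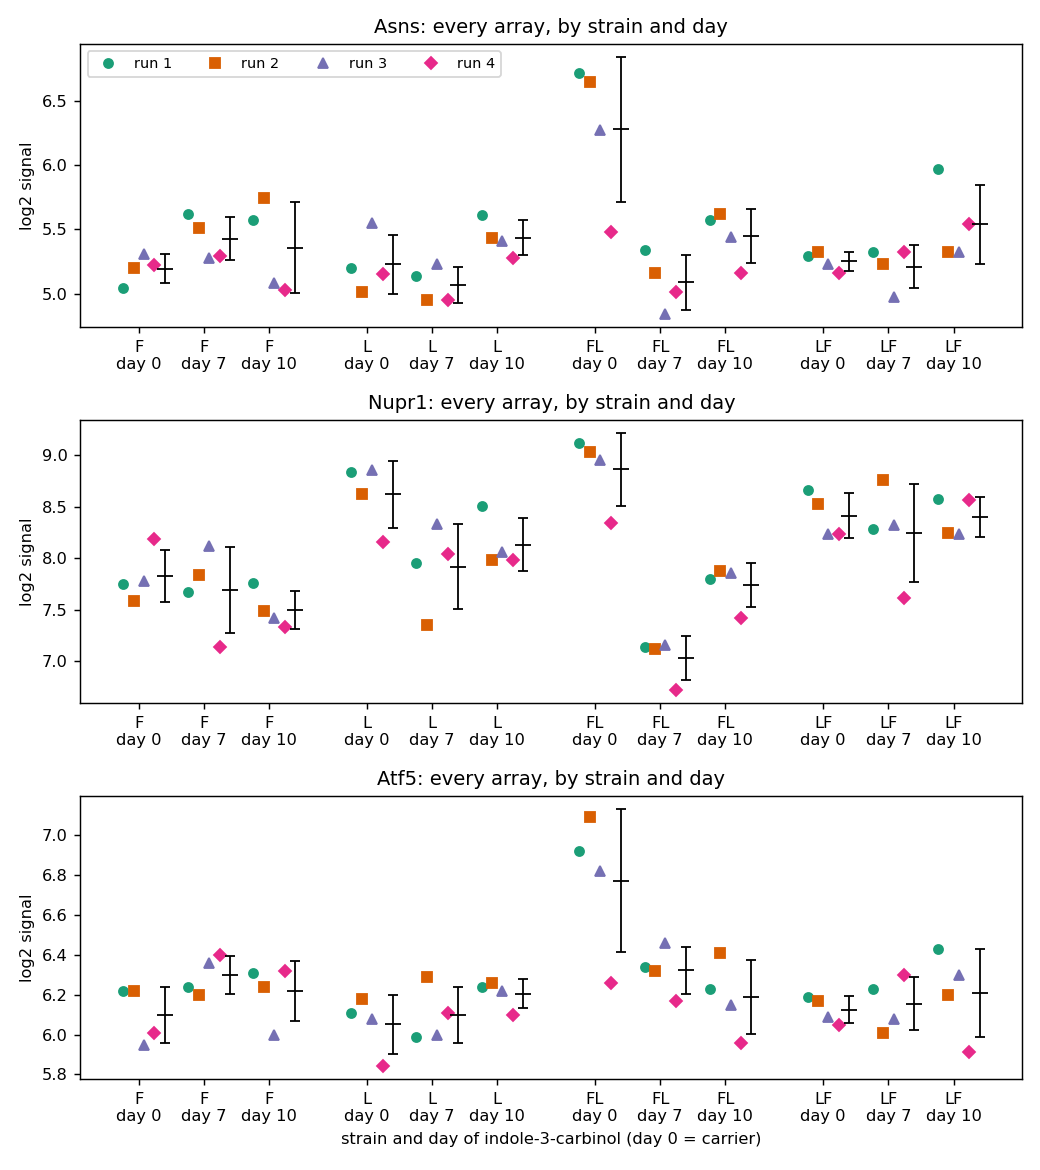
Log2 signal of Asns, Nupr1 and Atf5 on each of the 48 arrays, by strain and day; symbols mark replicate numbers (called runs in the key), and the bars beside them the group mean and SD (n = 4). FL day 0 has the highest mean in each panel (6.28, 8.86 and 6.77), with its replicate 4 lowest of that group, and Nupr1 has its lowest mean in FL at day 7 (7.04).

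In FL rats the 3 genes were lower on both treated days than at day 0. Asns measured 5.34, 5.16, 4.84 and 5.01 at day 7, and 5.57, 5.62, 5.44 and 5.16 at day 10. The day 7 arrays all lay below the FL day 0 arrays, whereas the day 10 arrays overlapped them through day 0 replicate 4. The difference from day 0 was -1.19 at day 7 (SE 0.18, -1.55 to -0.83) and -0.83 at day 10 (-1.19 to -0.47). Asns in FL was then back among the other strains: FL minus their mean was -0.15 at day 7 (-0.44 to 0.15) and 0.01 at day 10 (-0.29 to 0.30).

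Nupr1 in FL measured 7.14, 7.12, 7.16 and 6.72 at day 7, and 7.80, 7.88, 7.86 and 7.42 at day 10. Every treated FL array lay below every FL day 0 array, and the day 10 arrays all lay above those of day 7. The difference from day 0 was -1.83 at day 7 (SE 0.21, -2.25 to -1.40) and -1.12 at day 10 (-1.55 to -0.69), with day 10 above day 7 by 0.71 (0.28 to 1.13). Unlike Asns, Nupr1 in FL went below the other strains at day 7, by -0.92 (SE 0.17, -1.26 to -0.57), a 1.89-fold lower signal. At day 10 that difference was -0.27, with an interval of -0.62 to 0.08.

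Atf5 in FL measured 6.34, 6.32, 6.46 and 6.17 at day 7, and 6.23, 6.41, 6.15 and 5.96 at day 10. Both sets overlapped FL day 0 only through its replicate 4. The difference from day 0 was -0.45 at day 7 (SE 0.12, -0.70 to -0.20) and -0.59 at day 10 (-0.83 to -0.34). FL minus the mean of the other strains was 0.14 at day 7 and -0.02 at day 10.

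All 4 day 7 arrays of FL lay below all 4 at day 0 for Asns and Nupr1, as for 1.96% of all probe sets, and all 4 day 10 arrays did for Nupr1 (0.637%). Few probe sets passed an adjusted p of 0.05 in FL at all: 14 of 8797 at day 7 (0.159%) and 8 at day 10 (0.0909%). Among them Asns and Nupr1 were counted at day 7 and all 3 genes at day 10. These counts come from the contrasts that the genes were chosen on and are given only as description. In whole kidney RNA, fewer cells of a type and less RNA per cell cannot be told apart.

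The other strains moved less. Asns in F ranged from 5.28 to 5.62 at day 7 and from 5.03 to 5.74 at day 10. In L the same days spanned 4.95 to 5.23 and 5.28 to 5.61, and in LF 4.97 to 5.32 and 5.32 to 5.97. Its day 7 and day 10 differences from day 0 lay between -0.16 and 0.29 (SE 0.18), and each interval included 0. Atf5 in treated F, L and LF ranged from 5.91 to 6.43, and its differences lay between 0.03 and 0.20 (SE 0.12), again with intervals that included 0.

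Nupr1 had a second strain in which it was lower, L. In L it measured 7.95, 7.35, 8.33 and 8.04 at day 7 and 8.51, 7.98, 8.06 and 7.98 at day 10. Both sets overlapped L day 0 (8.16 to 8.85), with means lower by -0.70 (-1.13 to -0.27) and -0.48 (-0.91 to -0.06). In F it ranged from 7.14 to 8.12 at day 7 and from 7.33 to 7.76 at day 10, with differences of -0.14 and -0.33, and in LF from 7.61 to 8.76 and from 8.23 to 8.57, with differences of -0.17 and -0.01. Those 4 intervals included 0.

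Averaged over the 4 strains, Nupr1 differed from day 0 by -0.71 at day 7 (SE 0.11, -0.92 to -0.49) and by -0.49 at day 10 (-0.70 to -0.27). Asns averaged -0.29 (-0.47 to -0.11) and -0.04 (-0.22 to 0.14), and Atf5 -0.04 and -0.06. Taken over F, L and LF without FL, an average added after the values were seen, Asns differed by 0.01 at day 7 (-0.20 to 0.22) and by 0.22 at day 10 (0.01 to 0.43). The 4-strain mean for Asns at day 7 thus came from FL. Without FL, Nupr1 still averaged -0.34 (-0.58 to -0.09) and -0.27 (-0.52 to -0.03), and Atf5 0.09 and 0.12, with intervals that included 0. The FL difference from day 0 minus the mean difference of the other strains, also added later, was -1.20 (SE 0.21) for Asns at day 7, -1.49 (SE 0.24) for Nupr1 and -0.54 (SE 0.14) for Atf5.

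Ordered over the 12 groups, neighbouring group ranges overlapped for all 3 genes, with 1 exception: Nupr1 in FL at day 7, the lowest group (7.04), lay wholly below F at day 10, the next (7.50). The FL day 0 mean led the order by 0.74 for Asns (next, LF at day 10), by 0.45 for Atf5 (next, FL at day 7) and by 0.24 for Nupr1 (next, L at day 0). The lowest means of Asns (5.07, L at day 7) and Atf5 (6.05, L at day 0) were not set apart from the groups above them.

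The arrays fall into 4 sets of 12, called runs here, 1 for each replicate number, by a shared stem in their array file names. Each run holds 1 array of every group, and the labels do not say what the shared stem stands for. Within runs 1 to 4, Asns in FL at day 7 differed from day 0 by -1.37, -1.48, -1.43 and -0.47, Nupr1 by -1.98, -1.91, -1.79 and -1.62, and Atf5 by -0.58, -0.77, -0.36 and -0.09. At day 10 the differences were -1.14, -1.02, -0.83 and -0.32 for Asns, -1.32, -1.15, -1.09 and -0.92 for Nupr1, and -0.69, -0.68, -0.67 and -0.30 for Atf5. Each was below 0 in 4 of 4 runs, with run 4 nearest 0 in every case. Nupr1 in L was also below its day 0 array in 4 of 4 runs on both days. It differed by -0.12 to -1.27 at day 7 and by -0.18 to -0.79 at day 10. Asns in L at day 7 was lower in 4 of 4 runs too (-0.32 to -0.06). Atf5 was higher in 4 of 4 runs at day 10 in F (0.02 to 0.31) and in L (0.08 to 0.26). For Asns in L and Atf5 in F and L, the intervals of these mean differences included 0. The share of all probe sets with 4 of 4 runs one way was not counted.

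**Figure D2:**
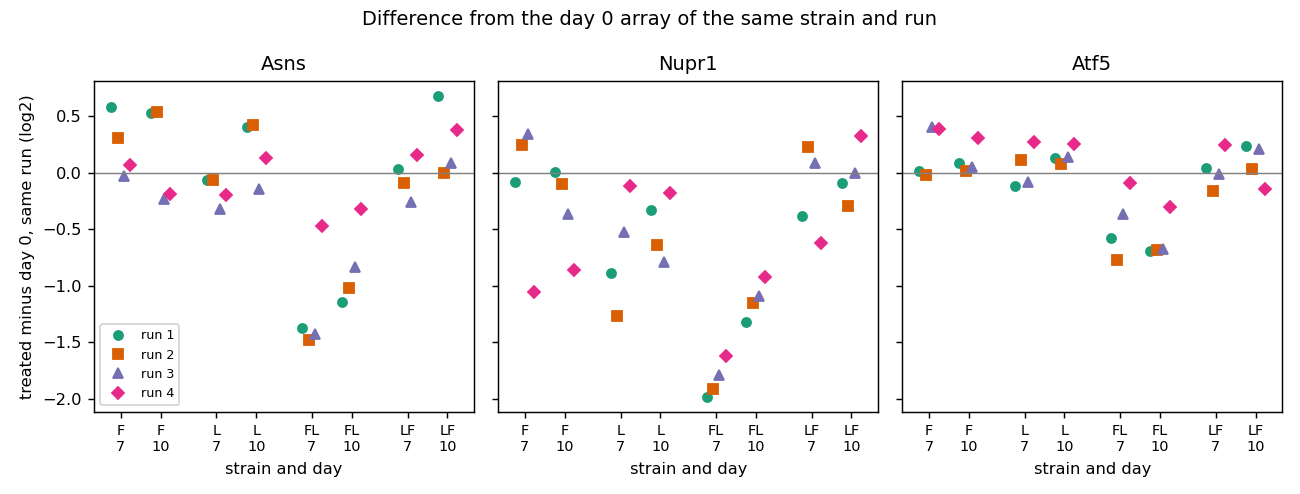
Difference in log2 signal between each treated array and the day 0 array of the same strain and run, for Asns, Nupr1 and Atf5; 1 point per run, with the strain and day on the x axis and a line at 0. All FL points lie below 0, from -1.98 to -0.09, and run 4 (diamonds) lies nearest 0 in FL.

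Run 4 holds FL day 0 replicate 4, in which all 3 genes were lowest of their group. At day 0, FL minus the mean of the other strains was 1.53, 1.46, 0.91 and 0.30 in runs 1 to 4 for Asns, 0.70, 0.78, 0.66 and 0.15 for Nupr1, and 0.75, 0.90, 0.78 and 0.29 for Atf5. Without that array, the FL day 0 means were 6.54 ± 0.24 (SD, n = 3) for Asns, 9.03 ± 0.09 for Nupr1 and 6.94 ± 0.14 for Atf5, and the differences from the other strains became 1.32, 0.75 and 0.85. Over all probe sets the 4 FL day 0 arrays correlated with each other at 0.988 to 0.991, within the 0.979 to 0.992 seen inside all groups.

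Asns and Atf5 varied together over the 48 arrays (Pearson r = 0.72), and this rested on FL day 0: over the other 44 arrays r was 0.22. For Asns and Nupr1 r was 0.52, and 0.26 without FL day 0, and for Nupr1 and Atf5 0.19, and -0.35 without it. Inside groups, as deviations from group means, r was 0.48 for Asns and Atf5, 0.47 for Asns and Nupr1, and 0.15 for Nupr1 and Atf5. The first of these fell to 0.17 when the 4 FL day 0 arrays were left out, and the second to 0.36. All such values share arrays between the genes and are given as a description.

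**Figure D3:**
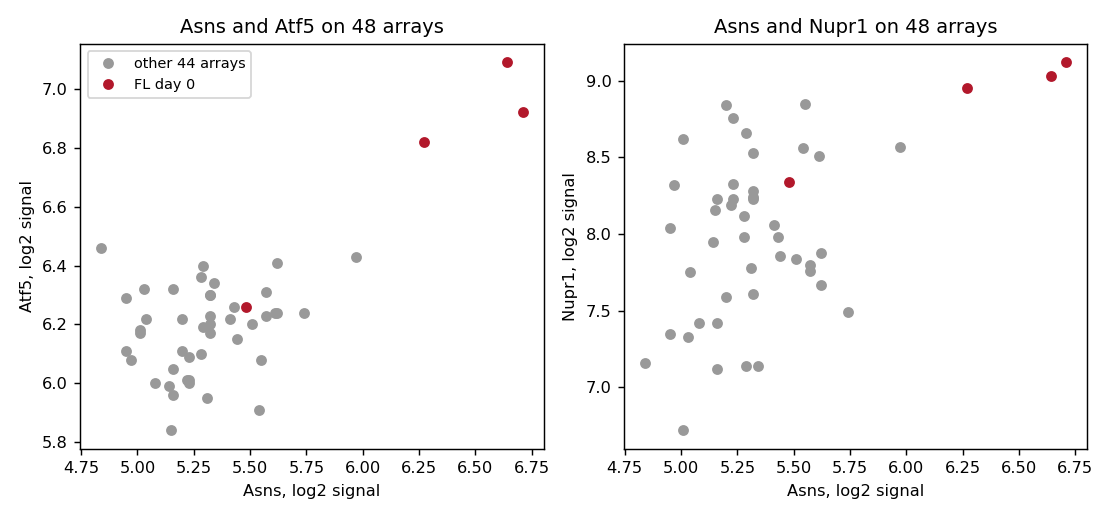
Log2 signal of Atf5 (left) and Nupr1 (right) against that of Asns, 1 point per array, with the 4 FL day 0 arrays in red and the other 44 in grey. Of the FL day 0 arrays 3 lie apart at the upper right in both panels, and replicate 4 (Asns 5.48) lies among the grey points.

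The genes most like each member over the 48 arrays were taken by Pearson r. Closest to Asns after Atf5 were Slc6a9, a glycine transporter (r = 0.68), Sars1, the cytosolic seryl-tRNA synthetase (0.63), Slc7a1, a carrier of cationic amino acids (0.62), and Mme, the peptidase neprilysin (0.59). Slc6a9, Sars1 and Slc7a1 belong to the Atf4 pathway list, and inside groups their r with Asns was 0.59, 0.64 and 0.54. These values include the FL day 0 arrays, where Slc6a9, Sars1 and Slc7a1 were, like Asns, lowest in replicate 4. They were not computed without those arrays. Slc6a9 (0.66) and Sars1 (0.54) were also among the 5 most like Atf5, with Asns (0.72), Or8b50 (0.63) and the dipeptidase Dpep2 (0.56). Nupr1 had a different set, Cyp4b1 (0.70), Pklr (0.67), Retsat (0.67), Kmo (0.65) and Fkbp9 (0.64). None of these 5 is on the Atf4 list, and in FL at day 0 they lay -0.19 to 0.00 from the other strains.

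The wider pathway was read from a list of 74 other genes of the integrated stress response, of which 48 were measured, and from lists for protein folding in the endoplasmic reticulum (ER; 15 of 24 measured) and for mitochondrial stress (7 of 11). These genes were tested with limma, with Benjamini-Hochberg adjustment over all 8797 probe sets. At day 0, FL against the mean of the other strains gave 1 Atf4 list gene higher and 0 lower at an adjusted p of 0.05, and 8 higher and 2 lower at an unadjusted p of 0.05, where 1.16% of all probe sets passed the adjusted threshold. The list's median difference was -0.04, beside -0.05 for all probe sets, and 19 of 48 genes lay above 0. Here and below, the shares of all probe sets at an unadjusted p or on a given side of 0 were not counted. List counts of those kinds therefore have no background beside them.

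The gene that passed was Slc1a4, a neutral amino acid transporter, which was higher in FL by 0.67 (SE 0.14, adjusted p = 0.00644 by limma). It measured 7.30, 7.22, 6.89 and 7.05 in FL, with 6.64 to 7.01 among the F arrays, 5.91 to 6.52 in L and 5.90 to 6.58 in LF, so FL overlapped F alone. Without FL day 0 replicate 1 or 2 no list gene passed. In FL its difference from day 0 was -0.25 at day 7 (-0.61 to 0.10, adjusted p = 0.847) and -0.40 at day 10 (-0.76 to -0.04, adjusted p = 0.999). FL was still above the other strains at day 7, by 0.64 (SE 0.14, adjusted p = 0.00871). In that day 7 comparison 2.23% of all probe sets passed, and 2 list genes were lower in FL: Ppp1r15a, which helps to dephosphorylate eIF2, by -0.35 (adjusted p = 0.024), and Shmt2, a mitochondrial one-carbon enzyme, by -0.37 (0.0336).

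Other amino acid genes of the list lay on the same side without passing the threshold. Slc6a9 differed by 0.44 (SE 0.13, adjusted p = 0.0965 by limma), with 7.09, 6.96, 6.82 and 6.14 in the FL arrays, replicate 4 again lowest. Slc7a1 differed by 0.26 (SE 0.08, adjusted p = 0.129), and Psat1, an enzyme of serine synthesis, by 0.31 (SE 0.11, adjusted p = 0.18). Against LF alone Psat1 passed, at 0.51 (SE 0.13, adjusted p = 0.0182), where 3.07% of all probe sets did. Without FL day 0 replicate 4, Slc6a9 and Slc7a1 also passed against the other strains (adjusted p = 0.00308 and 0.018 by limma), together with Slc1a4 (0.0204). In that fit 86 of 8797 probe sets passed. In FL at day 7 Slc6a9 differed from day 0 by -0.46 (adjusted p = 0.484) and Slc7a1 by -0.43 (0.0817). Both passed without that array (0.0392 and 0.00793), where 16 of all probe sets did. Slc6a9 and Slc7a1, like the members, were lowest of FL day 0 in the array left out. Its removal thus favours a pass, and nothing is read from these p-values. Slc7a1 also passed in FL at day 7 with every array kept and the replicate block, where all probe sets gave 4 higher and 17 lower.

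The transcription factors gave little. Atf4 RNA itself was 8.14 in FL at day 0 and 8.00 in the other strains, a difference of 0.14 (SE 0.12, adjusted p = 0.67 by limma). Ddit3, the stress factor CHOP, differed by -0.09 (adjusted p = 0.799), Atf3 by 0.01 (0.991), and Trib3, a pseudokinase that feeds back on Atf4, by 0.16 (0.575). By role, 5 of 8 amino acid transport genes lay above 0 (median 0.09), and 5 of 7 transcription factors (median 0.02). Kinases and initiation factors had 1 of 7 above 0 (median -0.10), synthesis enzymes 3 of 9 (-0.07), tRNA synthetases 1 of 4 (-0.03) and stress and growth genes 2 of 8 (-0.09). Slc7a5 and Slc3a2, the 2 chains of a large neutral amino acid transporter, stood at 0.00 and -0.05, and Phgdh and Psph, which flank Psat1 in serine synthesis, at -0.12 and -0.11.

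The secreted factors Fgf21 and Gdf15 differed by 0.30 (adjusted p = 0.286 by limma) and -0.17 (0.695). Ddit4, an inhibitor of mTORC1 signalling, had treated-day differences in FL on the side opposite to the members. At day 0 it was -0.38 from the other strains in FL (adjusted p = 0.398 by limma), with F the high strain. The means were 7.53 in F, 6.86 in L, 6.73 in LF and 6.66 in FL, and the FL arrays (6.42 to 6.86) overlapped those of L and LF. In FL the Ddit4 differences from day 0 were 0.72 at day 7 (adjusted p = 0.327) and 0.93 at day 10 (0.0773). None passed as deposited. The day 10 difference, higher, passed after the second quantile normalization, with array medians subtracted, with array spread as a covariate and with array weights. In that comparison all probe sets gave 9 higher and 7 lower, 6 and 5, 8 and 10, and 8 and 4 under these settings.

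**Figure D4:**
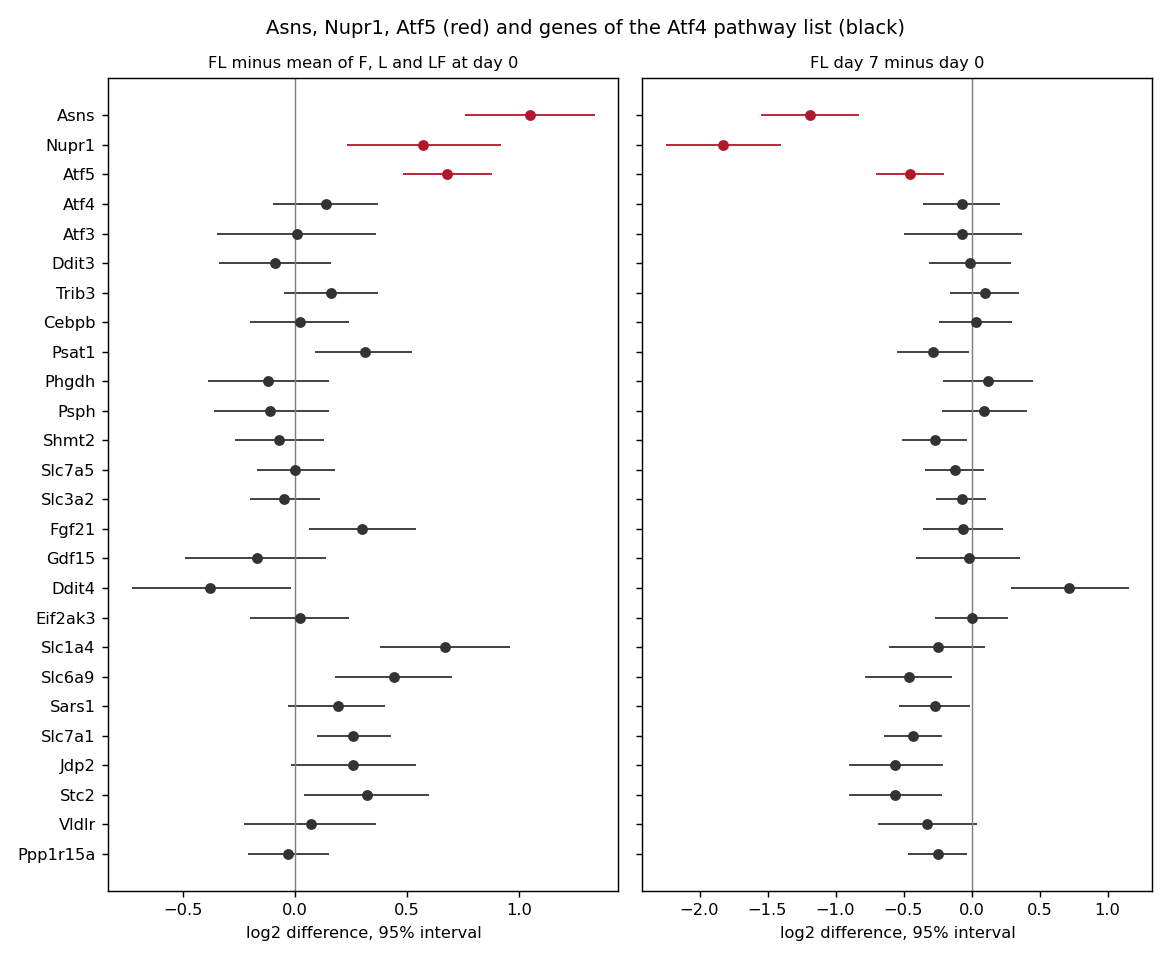
Log2 differences with 95% intervals for Asns, Nupr1 and Atf5 (red) and 23 genes of the Atf4 pathway list (black), with FL minus the mean of F, L and LF at day 0 on the left and FL day 7 minus day 0 on the right. Asns (1.05 and -1.19) lies outermost on the left and Nupr1 (-1.83) on the right, Slc1a4 (0.67) is the list gene that passed on the left, and none passed on the right.

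Over treatment, no Atf4 list gene passed in FL at day 7 by limma (1 higher and 11 lower at an unadjusted p of 0.05) or at day 10 (5 higher and 4 lower). At day 7, 39 of the 48 lay below 0 in FL, with a median of -0.09 beside -0.04 for all probe sets. LF was alike at that day (36 of 48, median -0.12 beside -0.0625 for all probe sets), while F and L had 23 and 28 below 0. In FL the 4 tRNA synthetase genes lay between -0.30 and -0.21. In F, L and LF the one call was Atf3, an early stress factor, which rose in LF by day 10 (0.88, adjusted p = 0.0276 by limma), with 3 list genes higher and 2 lower at an unadjusted p of 0.05. That call was lost in 8 of the 12 fits that left arrays out. The shares of all probe sets that passed were 0.671% and 0.239% in F (day 7 and day 10), 0.0114% and 0.0114% in L, and 2.26% and 0.887% in LF.

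Averaged over strains, day 7 gave a larger background: 4.94% of all probe sets passed by limma, and 2.41% at day 10. The Atf4 list gave 1 higher and 3 lower at day 7. Atf3 rose by 0.38 (SE 0.11, adjusted p = 0.0343), and at day 10 by 0.45 (0.013). Jdp2, a repressor of the same factor family, fell at day 7 by 0.28 (adjusted p = 0.046), Stc2, a secreted glycoprotein, by 0.30 (0.0332) and Vldlr, a lipoprotein receptor, by 0.29 (0.0489). These calls turned with the setting. The list gave 2 higher and 1 lower after the second quantile normalization or with array medians subtracted, and 3 and 0 with array spread as a covariate. It gave 0 higher and 8 lower with array weights, and 1 and 8 with the replicate block. Counts over all probe sets changed too, from 105 higher and 330 lower as deposited. They were 267 and 367 with quantiles, 256 and 310 with medians, and 268 and 225 with spread. With weights they were 223 and 905, and with the block 189 and 787. Jdp2 and Stc2 did not pass with quantiles, medians or spread. Vldlr did not with spread, nor Atf3 with weights (adjusted p = 0.0619 by limma). With arrays left out the count ran from 0 to 5.

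Among the ER folding genes, none passed in FL at day 7 by limma (0 higher and 6 lower at an unadjusted p of 0.05) or at day 0 against the other strains (3 higher and 0 lower unadjusted). Of these 15 genes 14 lay below 0 in FL at day 7, with a median of -0.18 beside -0.04 for all probe sets. In LF at day 7 15 of 15 lay below 0 (7 lower unadjusted), with a median of -0.215 beside -0.0625 for all probe sets. In L 11 of 15 did (median -0.0625 beside -0.025), and in F 14 of 15 lay above 0 (7 higher unadjusted, median 0.188 beside -0.005). None of the 7 mitochondrial stress genes passed in either comparison (0 higher and 1 lower unadjusted at day 7, and none at day 0). A test of strain by day over all groups passed for 17 probe sets (0.193%), and no gene of the 3 stress lists was among them.

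In FL at day 0, the number of list calls and the sign of the Atf4 list median depended on how the arrays were scaled. The calls themselves were all on the higher side. In FL at day 0 against the other strains, all probe sets gave 32 higher and 70 lower as deposited, 115 and 89 after a second quantile normalization, 96 and 76 with array medians subtracted, and 128 and 87 with array spread as a covariate. Atf4 list genes called higher went from 1 to 7, 6 and 7, with 0 lower, and the list median to 0.07, 0.04 and 0.04. The genes added by the second quantile normalization were Psat1, Gpt2, Cbs, Slc7a1, Slc6a9 and Sars1. ER folding calls went from 0 to 3, 3 and 4, all higher. The members moved little: over these and the other settings that kept every array, the FL day 0 difference ranged from 0.98 to 1.16 for Asns, 0.49 to 0.70 for Nupr1 and 0.63 to 0.78 for Atf5.

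Markers of other cell types were read beside the FL day 0 values, as signals summed over each list on the linear scale. Proximal tubule markers (12 of 15 measured) summed to 35241 to 38133 in FL at day 0, inside the span of the other strains (33638 to 41452), and Slc34a1, a defining marker, averaged 12.01 over all arrays. Tubular injury markers (12 of 14) summed to 3073 to 3628, beside 2764 to 3894, and pancreatic acinar markers (7 of 10) to 195 to 233, beside 180 to 228. White blood cell markers (10 of 17) summed to 318 to 390, at the low end beside 361 to 513. Distal nephron and collecting duct markers (14 of 14) summed to 14428 to 17445, beside 14691 to 18412, and podocyte and endothelium markers (7 of 12) to 1715 to 2216, beside 1960 to 2460. Liver markers (7 of 9) summed to 1429 to 1742, beside 1174 to 1983, and adipose and adrenal markers (8 of 12) to 136 to 147, beside 131 to 172. The liver sum is mostly Cyp2e1, which averaged 10.63 over all arrays, while the other liver markers averaged 2.93 to 3.86. The one marker that passed by limma in FL against the other strains at day 0 was Fxyd4, a sodium pump regulator of the collecting duct, at -0.54 (adjusted p = 0.0283).

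Markers also moved on the treated days, when the members were lower in FL. Distal markers summed to 12974 to 15228 in FL at day 7 and 12188 to 16854 at day 10, with 12 and 13 of 14 below 0 and none past the threshold by limma (3 and 5 lower at an unadjusted p of 0.05). In the mean of all strains 9 of the 14 fell past the threshold at day 7 and 7 at day 10, among them Slc12a1 and Aqp2. Of all probe sets, 4.94% and 2.41% passed in those comparisons. Podocyte and endothelium markers in FL summed to 1635 to 1894 at day 7, with 7 of 7 below 0, and to 1602 to 2248 at day 10. Proximal tubule markers summed to 33940 to 36955 and 34093 to 40000, tubular injury markers to 2549 to 3694 and 2894 to 4682, and white blood cell markers to 315 to 387 and 291 to 410. Of the 12 injury markers 5 rose past the threshold in the strain mean at day 7 (Havcr1, Lcn2, Clu, Timp1 and Fgb), and 2 were lower at an unadjusted p of 0.05. In FL none passed on either day (0 higher and 0 lower unadjusted at day 7, 5 higher and 0 lower at day 10). At day 7, 4 passed as higher in F, 4 in LF and 0 in L. The part of these cell types in the members' values was not tested. Cyp1a1, the reporter of the compound, was 4.09 to 5.03 in FL at day 0, 4.47 to 6.15 at day 7 and 5.70 to 6.83 at day 10, so the day 7 range overlapped that of the carrier.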

How the data were processed

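Total RNA from kidneys was labelled with biotin and read on 48 whole-transcript arrays. The authors deposited log2 signals to 2 decimals, and RMA and limma are named, without versions or roles, per the submitters' processing notes. The values were used as deposited (1.04 to 14.02, none missing). Arrays give no read depth, so their number limits the precision. Symbols came from the platform annotation, updated by Entrez identifier for 7584 probe sets and otherwise kept. The annotation's Entrez identifier for Nupr1 differed from that of RefSeq, so Nupr1 was matched by symbol. Of the probe sets, 785 had no symbol and 409 several, and these were not named. For 14 symbols with several probe sets the one of highest mean was used.

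A limma fit (3.58.1, R 4.3.3) had 1 mean per group, 36 residual and 3.69 prior degrees of freedom, and Benjamini-Hochberg adjustment over 8797 probe sets at 0.05. The members and lists were chosen with earlier results of these data known. Named list genes were a fixed set of pathway genes, up to 6 with the smallest p among those past the threshold in each comparison, and for likeness the 5 with the highest r. Alternatives were a replicate block, a second quantile normalization, subtracted array medians, array spread as a covariate, array weights, leaving out the dimmest probe sets, and each array or replicate number left out. Same-numbered arrays deviated together with a mean r of 0.09 (lowest -0.27). The -0.03 for different numbers is no separate comparison, since deviations from group means sum to 0 in each group. The main p-values do not use the runs, and the block is an alternative. It changed the calls over all probe sets: LF at day 7 went from 34 higher and 165 lower to 89 and 633. The strain mean at day 7 went from 105 and 330 to 189 and 787. The fit was also run on simulated data, with independent normal noise and shifts planted in FL at day 7 only. That simulation held no run or scaling effects, so it cannot speak to them.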

Additional observations from a re-analysis of the deposited data

Results flagged for a closer look

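Of 36 groups of 4 arrays (3 genes in 12 groups), 2 held an array far from the others, where the gap to the nearest array took up nearly the whole range of the group (Dixon's criterion at its 95% limit). Chance alone passes that limit in about 5% of groups. Nupr1 measured 6.72 in FL day 7 replicate 4, against 7.12 to 7.16 in the other arrays of its group, and 8.51 in L day 10 replicate 1, against 7.98 to 8.06.

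In 5 cases every array of 1 strain lay above its own day 0 mean while every FL array lay below its own. For Asns the mean differences from day 0 were 1.42 apart between F and FL at day 7, 1.03 between L and FL at day 10, and 1.12 between LF and FL at day 10. For Atf5 they were 0.65 apart between F and FL at day 7 and 0.73 between L and FL at day 10. These differences were not tested, since the genes were chosen on these values.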

How the results depend on the processing

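The 51 differences given for Asns, Nupr1 and Atf5 were set beside 306 values from settings that kept every array. The replicate block and leaving out the dimmest probe sets cannot change these estimates, so their values were fixed in advance. All 306 values moved by less than the replicate spread. That limit is the residual SD of the gene, which is wider than the SE of each difference. In 11 of these values, from 7 differences of at most 0.17 in size, the sign turned: Asns LF day 7 (-0.04) became 0.14, Nupr1 LF day 7 (-0.17) 0.05 and Asns LF minus L at day 0 (0.02) -0.01 with spread as a covariate, Atf5 strain mean day 7 (-0.04) became 0.03 with quantiles, Atf5 LF minus F (0.03) -0.02 with medians, and Atf5 and Asns F minus L (0.05 and -0.04) became -0.03 and 0.02 with weights. With arrays left out, the differences in Asns that moved further were FL day 7 (-1.45 to -1.04) and day 10 (-1.09 to -0.68) against day 0 and, at day 0, FL against F (0.89 to 1.36), L (0.85 to 1.31), LF (0.88 to 1.29) and their mean (0.89 to 1.32). Nupr1 in F at day 7 went from -0.29 to 0.17 and turned sign without replicate number 4; in all, 29 of 780 values with arrays left out had the other sign, from 13 differences of at most 0.17. Under the second quantile normalization the level of Atf5 became 6.45 in FL at day 7 and 6.12 in L at day 10.

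The list counts changed more, for causes that were not tested. With the replicate block, Atf4 list calls were 1 in FL at day 7 (lower), 3 in LF at day 7 (all lower: Eif2b1, Atf2 and Lars1) and 9 in the strain mean at day 7 (8 lower). Over all 8797 probe sets the block gave 4 higher and 17 lower in FL at day 7. For LF at day 7 these counts were 89 and 633, and for the strain mean 189 and 787. ER folding calls were then 1, 3 and 1, and mitochondrial calls 1 in LF and 1 in the strain mean at day 7 (Yme1l1, lower). With the second quantile normalization, Atf4 calls were 1 (F day 7), 1 (FL day 10: Ddit4, higher), 3 (LF day 7), 2 (strain mean day 10) and 7 (FL against the others at day 0). With medians subtracted they were 1 (F day 7), 1 (FL day 10), 3 (LF day 7) and 6 (FL against the others). The LF day 7 calls under both were Ppp1r15a, Slc7a1 and Gdf15, all higher, opposite in direction to those with the block. All probe sets gave 187 higher and 207 lower there with quantiles, and 133 and 174 with medians. The other calls in this paragraph have no such count beside them. Atf4 calls were, with spread as a covariate 1, 1, 3 (strain mean day 10) and 7, and with weights 1, 1, 2 (strain mean day 10) and 8 (strain mean day 7). Without the dimmest probe sets F at day 7 gave 1. ER folding calls in FL at day 7 were 1 with medians, with spread and without the dimmest, in LF at day 7 2 with weights and 1 without the dimmest, in the strain mean at day 7 2 with weights, and in FL against the others at day 0 3, 4 and 3 with medians, spread and quantiles. Mitochondrial calls were 1 with spread and 1 with quantiles in LF and in the strain mean at day 7, there Clpx, higher. With arrays left out, Atf4 calls ran from 0 to 1 (F day 7, FL day 10, LF day 10), 0 to 2 (FL day 7, LF day 7, strain mean day 10), 0 to 5 (strain mean day 7) and 0 to 3 (FL against the others), and ER folding calls from 0 to 1 (FL day 7) and 0 to 2 (LF day 7).

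The limits are 4 arrays per group, 1 probe set per gene, RNA of whole kidney and no measure of protein. Chac1, Cebpg, Mthfd2, Slc7a11, Sesn2 and Eif2ak4 were not analysed here.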
